A study of Mus musculus with 9 samples.

Results

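The genes described here encode the proteins other than collagen that fill and link hyaline cartilage: aggrecan (Acan), its link proteins (Hapln1 and Hapln3), the 4 matrilins (Matn1 to Matn4), cartilage oligomeric matrix protein (Comp), chondromodulin (Cnmd) and epiphycan (Epyc). They were taken by name, as 10 of the 43548 gene identifiers in the expression table, and all 10 were among the 18714 genes with a mean FPKM, that is, read fragments scaled to transcript length and library size, not under 0.5, which were tested. RNAseq was done on 9 libraries from mouse embryos at E14.5, 3 for each of 3 tissues. The MCAGF8 cranial vault came from Msx2-Cre; CAGFgf8 embryos, in which Msx2-Cre switches on an Fgf8b allele under the CAG promoter at the ROSA26 locus, mainly in the surface ectoderm. Vault and base tissue of the control embryos carry the label wildtype, and the methods describe controls as littermates without Cre from crosses to a homozygous allele stock, so that an unrecombined Fgf8b allele is shared by all groups. The strain label is mixed, and the allele was kept on an outbred Black Swiss background. Skin was peeled off before the vault was taken, so the cells in which Cre acts were meant to be removed. RNA of 3 tissue samples was pooled for each library, which makes 9 samples in a group, and base cartilage was taken from control embryos whose vaults were also collected, without a statement of which pools share embryos. All p-values therefore measure the spread between pools.

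Aggrecan is a large proteoglycan whose chondroitin sulfate chains hold water, and link proteins lock its head to hyaluronan so that large aggregates form. Matrilins and COMP are adaptor proteins that join these aggregates to the collagen fibrils of type II, IX and XI. Chondromodulin is a membrane-anchored glycoprotein that keeps vessels out of cartilage, and epiphycan is a small leucine-rich proteoglycan of the growth plate. In a normal skull the vault forms bone directly from mesenchyme, while the base is laid down as cartilage and replaced by bone later. The comparisons ask how far the vault of MCAGF8 embryos holds the transcripts of this aggregate, relative to the normal vault and to normal cartilage of the base.

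Control base replicate 2 stood apart from the other base libraries and is shown apart throughout. It had the highest value of all 9 libraries in 7 of the 10 genes and the lowest in Hapln3 and Matn2, while over all genes tested it was the highest library for 16.3%. The cartilage collagen Col2a1 stood at 2292 FPKM there, against 162.8 and 268 FPKM in base replicates 1 and 3. The summed level of 8 skeletal muscle markers was 2018 FPKM in base replicate 2 and 5278 and 12454 FPKM in base replicates 3 and 1, and that of 8 epidermal markers was 64.9 FPKM against 678 and 492 FPKM. In the vault, the muscle sum ran from 30.8 to 287 FPKM in MCAGF8 and from 1103 to 6718 FPKM in the controls, and the epidermal sum from 386 to 1002 FPKM and from 14.1 to 103 FPKM. Osteoblast markers summed to 2200 to 2905 FPKM in the MCAGF8 vault and 3967 to 7138 FPKM in the control vault. Col1a1 made up most of the MCAGF8 sum, at 2102 to 2666 FPKM beside 2664 to 3913 FPKM in the control vault. Of the 8 osteoblast markers, 5 passed the test given below as lower in MCAGF8, where 0.374% of all genes tested did. Brain markers summed to 342 to 1035 FPKM in the base, 61.7 to 94.6 FPKM in the MCAGF8 vault and 46.9 to 177 FPKM in the control vault. Endothelial markers summed to 130 to 163 FPKM, 212 to 298 FPKM and 182 to 215 FPKM in the same order, and erythroid markers to 2811 to 4467 FPKM, 5044 to 7479 FPKM and 5485 to 8265 FPKM, so these 3 lists set the base apart from both vaults without overlap. No marker of these lists was at 0 in every library of a group. How far such differences in tissue make-up enter the values that follow was not tested, and in bulk tissue fewer cells of a type and less RNA per cell cannot be told apart. Chondrocyte markers were present in all tissues, with a summed level of 844 to 7769 FPKM in the base, 2413 to 4159 FPKM in the MCAGF8 vault and 1740 to 2366 FPKM in the control vault, so the control vault is not a tissue without cartilage transcripts. The number of reads per library is unknown, and the sum of FPKM per library ran from 793249 to 1315982.

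The genes are scattered over 9 chromosomes, and only Acan and Hapln3 are neighbours. In the GENCODE M21 annotation of GRCm38, Acan (ENSMUSG00000030607) spans chr7:79053483-79115099 on the plus strand and Hapln3 (ENSMUSG00000030606) spans chr7:79115102-79131018 on the minus strand, so that their 3′ ends face each other across 2 bases. Matn4 (ENSMUSG00000016995) lies at chr2:164389393-164405160 on the minus strand and overlaps Rbpjl on the other strand. Whether strand was used in counting is not stated, but Rbpjl itself was low, at 0.414 to 5.12 FPKM. The other genes are Hapln1 (ENSMUSG00000021613, chr13:89539796-89611652, plus), Matn1 (ENSMUSG00000040533, chr4:130944385-130955475, plus), Matn2 (ENSMUSG00000022324, chr15:34306677-34436273, plus) and Matn3 (ENSMUSG00000020583, chr12:8947929-8972028, plus). Comp (ENSMUSG00000031849) lies at chr8:70373558-70382066 on the plus strand, Cnmd (ENSMUSG00000022025) at chr14:79637690-79662170 on the minus strand and Epyc (ENSMUSG00000019936) at chr10:97644068-97682454 on the plus strand. Within the spans of Hapln1, Matn2 and Epyc the annotation also places Gm8546, 9430069I07Rik and Gm10754 on the opposite strand. The first was listed at 13.7 to 22.1 FPKM, and the other two at 0 in every library. The sources used here do not give the build behind the FPKM.

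RefSeq promoter windows (GRCm38.p6, from 250 bases before to 50 after the transcription start, 300 bases each) were found for 8 of the 10 genes. Those of Acan and Matn1 are printed because these genes had nearly parallel levels over the libraries, that of Matn4 (the downstream of its 2 annotated starts) because it differed most between the vaults, and those of Hapln3 and Epyc (the upstream of its 2 starts) because their levels followed other patterns. Capitals mark the letters ACAAT and ACAAAG, which belong to binding motifs of SOX factors, and the GC box GGGCGG, each searched on both strands, and TATAAA on the strand of the gene.
Acan, chr7:79052976-79053275, plus strand: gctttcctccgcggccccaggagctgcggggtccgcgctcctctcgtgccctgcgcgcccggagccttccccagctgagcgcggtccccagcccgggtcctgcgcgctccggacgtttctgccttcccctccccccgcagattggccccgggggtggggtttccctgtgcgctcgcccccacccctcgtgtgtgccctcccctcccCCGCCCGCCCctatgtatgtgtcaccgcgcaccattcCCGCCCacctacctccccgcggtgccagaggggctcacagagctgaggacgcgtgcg
Matn1, chr4:130944135-130944434, plus strand: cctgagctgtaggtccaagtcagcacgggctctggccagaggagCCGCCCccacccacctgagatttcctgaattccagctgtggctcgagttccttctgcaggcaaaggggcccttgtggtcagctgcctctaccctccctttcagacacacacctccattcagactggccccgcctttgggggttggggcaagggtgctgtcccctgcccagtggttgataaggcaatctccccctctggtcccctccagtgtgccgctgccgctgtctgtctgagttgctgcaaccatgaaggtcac
Matn4, chr2:164404769-164405068, minus strand: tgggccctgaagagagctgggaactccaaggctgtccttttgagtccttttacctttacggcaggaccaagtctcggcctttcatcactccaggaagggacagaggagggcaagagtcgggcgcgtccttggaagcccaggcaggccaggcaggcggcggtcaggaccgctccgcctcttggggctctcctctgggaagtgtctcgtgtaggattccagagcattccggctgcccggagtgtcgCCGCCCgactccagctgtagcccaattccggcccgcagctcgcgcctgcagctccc
Hapln3, chr7:79130969-79131268, minus strand: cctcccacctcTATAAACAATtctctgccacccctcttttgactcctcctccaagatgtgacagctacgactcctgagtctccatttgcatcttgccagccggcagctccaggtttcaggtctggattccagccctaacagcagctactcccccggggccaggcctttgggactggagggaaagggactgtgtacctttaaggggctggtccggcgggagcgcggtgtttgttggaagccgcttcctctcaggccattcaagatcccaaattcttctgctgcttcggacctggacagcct
Epyc, chr10:97643818-97644117, plus strand: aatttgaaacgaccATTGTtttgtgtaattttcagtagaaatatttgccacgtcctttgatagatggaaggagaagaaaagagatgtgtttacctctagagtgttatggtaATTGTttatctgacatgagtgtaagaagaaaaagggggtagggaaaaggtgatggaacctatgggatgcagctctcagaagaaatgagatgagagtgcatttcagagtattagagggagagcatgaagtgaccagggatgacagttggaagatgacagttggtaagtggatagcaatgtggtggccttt
The windows of Acan and Matn1 were GC-rich (74.0% and 61.3%) and held GGGCGG or its complement, 3 times in Acan and once in Matn1, as 35.7% of all 32851 windows did. Neither held the other 3 motifs in this stretch. The printed Epyc window was 40.3% GC with 2 copies of ACAAT, a motif found in 31.0% of windows. In Hapln3, TATAAA and ACAAT overlap by 1 base far upstream of the start, the former being present in 8.3% of windows. ACAAAG, which was in 18.7% of windows, was in none of the 5 printed here. The other Epyc window (chr10:97646853-97647152, 32.3% GC) held 1 copy of it and 3 of ACAAT, and the other Matn4 window held none of the 4 motifs. These letter matches are descriptions of the windows and say nothing about factor binding.

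The genes spanned a wide range of levels, and Matn4 led in the MCAGF8 vault while Cnmd led in both control tissues. FPKM are per length, so levels can be compared between genes. In the control vault Cnmd had the highest mean, 447 ± 156 FPKM (SD, n = 3 as in all groups), followed by Matn4 at 239 ± 10.4, Matn1 at 151 ± 28.0, Hapln1 at 112 ± 32.5, Epyc at 86.0 ± 40.0, Matn2 at 55.6 ± 9.50, Acan at 36.9 ± 5.21 and Matn3 at 20.8 ± 12.2 FPKM. Hapln3 and Comp closed the order at 5.30 ± 0.535 and 3.50 ± 2.28 FPKM. Neighbours whose values overlapped were Hapln1 and Epyc, Epyc and Matn2, Acan and Matn3, and Hapln3 and Comp. In the MCAGF8 vault Matn4 stood first at 653 ± 154 FPKM with values overlapping those of Cnmd at 602 ± 200 FPKM, and a gap without overlap separated these from Matn1 at 267 ± 126 FPKM. In the base Cnmd, Matn1 and Hapln1 led at 720 ± 798, 388 ± 530 and 326 ± 424 FPKM, SDs set by replicate 2, and only the lowest pair, Comp and Hapln3, did not overlap. Without replicate 2 the base kept the rank of 7 genes, and Matn2 moved up past Acan and Matn3.

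**Figure D1:**
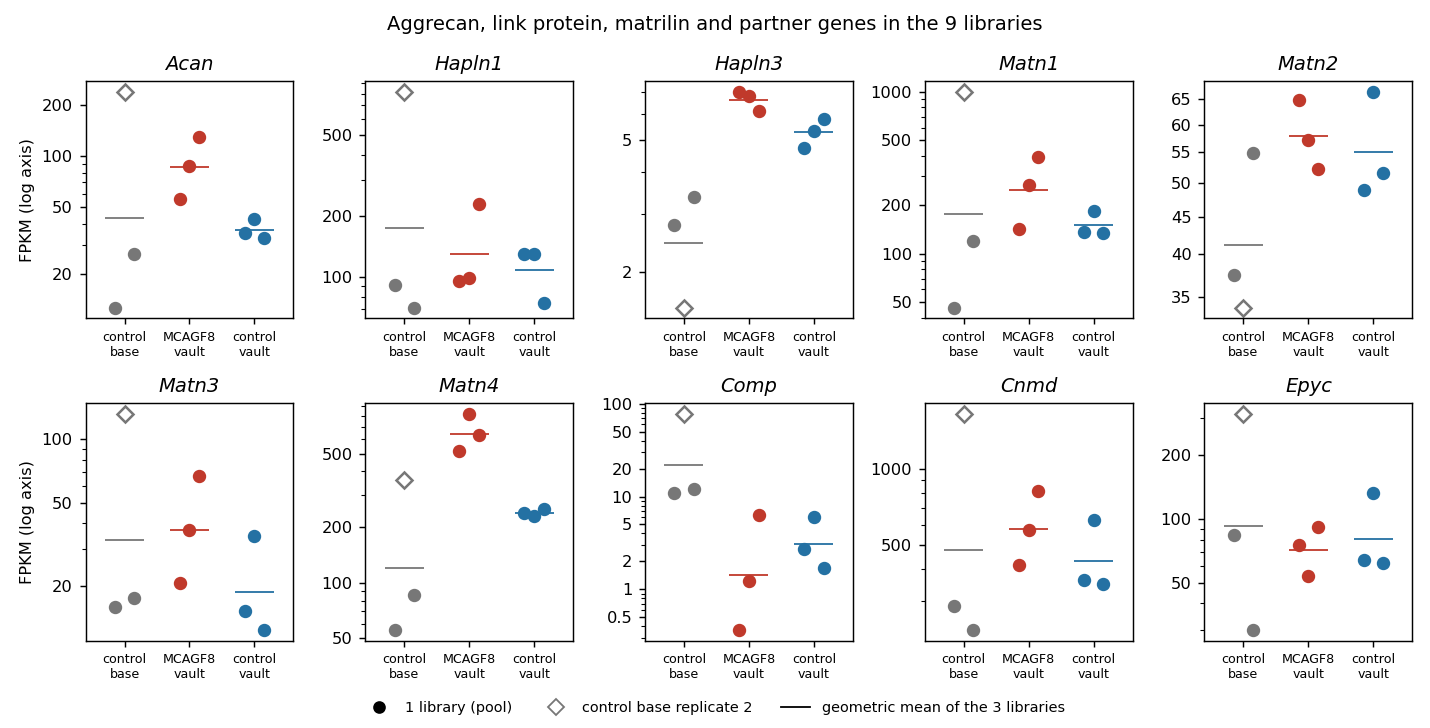
FPKM (log axis, range set per panel) of each gene in the 9 libraries, grouped as control base (grey), MCAGF8 vault (red) and control vault (blue); each point is 1 pool, the open diamond is control base replicate 2 and the line is the geometric mean of 3 libraries. Replicate 2 of the base lies above all other libraries in 7 panels, at the bottom for Hapln3 and Matn2, and within the range of the vaults for Matn4.

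Aggrecan, the core of the aggregate, was higher in the MCAGF8 vault than in every control vault library, but the difference did not pass the test. Acan stood at 55.7, 87.4 and 130.6 FPKM in MCAGF8 vault replicates 1, 2 and 3, and at 35.2, 42.8 and 32.8 FPKM in the control vault. In the base it stood at 12.7 and 26.5 FPKM in replicates 1 and 3 and at 240.5 FPKM in replicate 2. The base thus held both the lowest and the highest library. Against the control vault the mean log2 difference was 1.21 ± 0.85 (SE, limma on log2(FPKM + 1)), with a Benjamini-Hochberg adjusted p of 0.969 over all genes tested. The groups share 1 estimate of the spread in this fit, so the wide range of the base enters this SE. Over 19 alternatives the difference between the vaults was 0.91 to 1.52, with a lowest adjusted p of 0.154. Against the base the log2 difference was 0.95 ± 0.85 (adjusted p = 0.591), and without base replicate 2 it was 2.16 ± 0.38 (adjusted p = 0.00861).

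Hapln1, the main link protein of cartilage, showed no such separation between the vaults. It was at 96.2, 98.7 and 228.6 FPKM in the MCAGF8 vault and at 130.7, 130.6 and 74.3 FPKM in the control vault, with a log2 difference of 0.26 ± 0.80 (adjusted p = 0.990). Base replicates 1 and 3 were at 91.1 and 70.8 FPKM and replicate 2 at 815.7 FPKM. Only MCAGF8 replicate 3 lay above all control vault libraries, and without it the difference turned to -0.15.

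Hapln3, a link protein of wider tissue distribution, was the least expressed of the 10 genes in the base and followed a different order. It was at 7.01, 6.80 and 6.12 FPKM in the MCAGF8 vault, at 4.75, 5.34 and 5.82 FPKM in the control vault, at 2.77 and 3.36 FPKM in base replicates 1 and 3 and at 1.56 FPKM in base replicate 2. No 2 groups overlapped. The level was 2.59-fold higher in the MCAGF8 vault than in the base (log2 difference 1.14 ± 0.24, adjusted p = 0.0286), a difference that passed the test with and without base replicate 2 (0.91 ± 0.22, adjusted p = 0.0245) and was lost without MCAGF8 replicate 1 (adjusted p = 0.130). The difference between the vaults was 0.28 ± 0.24 (adjusted p = 0.969), and that of the base from the control vault was -0.86 ± 0.24 (adjusted p = 0.134), which passed after quantile normalization (adjusted p = 0.0470). Its neighbour Acan was highest in the library where Hapln3 was lowest.

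Among the matrilins, Matn4 gave the clearest separation of the MCAGF8 vault. Matn4, which is expressed in many tissues besides cartilage, was at 513.8, 818.9 and 626.2 FPKM in the MCAGF8 vault and at 237.7, 230.1 and 250.6 FPKM in the control vault. Base replicates 1 and 3 were at 55.5 and 85.5 FPKM, and replicate 2 at 360.0 FPKM. All MCAGF8 libraries lay above all other libraries, and the control vault values lay close together. Against the base the mean was 3.91-fold higher (log2 difference 2.41 ± 0.56, adjusted p = 0.0406), and without base replicate 2 the log2 difference was 3.20 ± 0.25 (adjusted p = 0.000252). This call was lost without base replicate 3 or any 1 of the MCAGF8 libraries (adjusted p = 0.108 to 0.138), and also in the unmoderated model (0.152) and in a fit to the 2 groups compared (0.103), with log2 differences of 2.17 to 2.57.

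Between the vaults Matn4 was 2.73-fold higher in MCAGF8, with a log2 difference of 1.42 ± 0.56 and a 95% interval from 0.16 to 2.68. The limma fit to all libraries gave an adjusted p of 0.659, although the unadjusted p was under 0.05. It passed without base replicate 2 (± 0.22, adjusted p = 0.0310) and in a fit to the 6 vault libraries alone (± 0.19, adjusted p = 0.0433). The study plots Matn4 among the matrix genes it chose from these libraries, so its difference is not independent evidence. Without base replicate 2 the base was lower than the control vault by -1.78 ± 0.25 (adjusted p = 0.00560), while with all libraries the difference was -0.99 ± 0.56 (adjusted p = 0.560).

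Matn1, the matrilin of resting and proliferating cartilage, was nearly parallel to Acan. It was at 141.6, 267.2 and 393.1 FPKM in the MCAGF8 vault, at 136.5, 183.4 and 133.5 FPKM in the control vault, at 46.3 and 119.3 FPKM in base replicates 1 and 3 and at 998.8 FPKM in base replicate 2. The vaults overlapped, with a log2 difference of 0.71 ± 0.90 (adjusted p = 0.975). Against base replicates 1 and 3 alone the difference was 1.71 ± 0.47 (adjusted p = 0.0377), and with replicate 2 it was 0.47 ± 0.90 (adjusted p = 0.834).

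Matn3, a matrilin largely restricted to cartilage, varied within every group. It was at 20.8, 37.0 and 66.5 FPKM in the MCAGF8 vault, 15.3, 34.8 and 12.5 FPKM in the control vault, 16.0 and 17.7 FPKM in base replicates 1 and 3 and 131.6 FPKM in base replicate 2. Its difference between the vaults, 0.94 ± 0.76 (adjusted p = 0.969), was close to its error. Matn2, a matrilin found in many connective tissues, was the steadiest of the 10 genes, with a 1.97-fold range over all libraries. It was at 64.9, 57.3 and 52.3 FPKM in the MCAGF8 vault, 48.9, 66.5 and 51.5 FPKM in the control vault, 37.4 and 54.9 FPKM in base replicates 1 and 3 and 33.8 FPKM in base replicate 2. The difference between the vaults was 0.07 ± 0.22 (adjusted p = 0.990), with a 95% interval from -0.42 to 0.56, and that from the base was 0.48 ± 0.22 (adjusted p = 0.257).

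Comp, the pentameric thrombospondin that binds collagen fibrils, was lowest in the vaults and marked the base. It was at 0.366, 1.24 and 6.29 FPKM in the MCAGF8 vault and at 2.73, 6.07 and 1.71 FPKM in the control vault, groups that overlapped. The base held more in every library, at 11.02 and 11.9 FPKM in replicates 1 and 3 and 77.5 FPKM in replicate 2. The mean in the MCAGF8 vault was 12.7-fold lower than in the base (log2 difference -3.03 ± 0.80, adjusted p = 0.0653), and without base replicate 2 the difference was -2.15 ± 0.65 (adjusted p = 0.0522). The call was lost without MCAGF8 replicate 1 (adjusted p = 0.233) or 2 (adjusted p = 0.186), in the unmoderated model (0.194), without a filter on low values (0.129), after rescaling to a common sum (0.118) and in a fit to the 2 groups compared (0.124). The control base also lay above the control vault, by 2.47 ± 0.80, which reached an unadjusted limma p of 0.0123 and an adjusted p of 0.196. Between the vaults the difference was -0.56 ± 0.80 (adjusted p = 0.976). The brain markers were also higher in every base library than in the vaults. Summed markers of hypertrophic chondrocytes ran with Comp. They were at 204 to 767 FPKM in the base, 83.8 to 121 FPKM in the MCAGF8 vault and 103 to 164 FPKM in the control vault. In both vaults most of this sum was Pth1r, whose log2 difference of MCAGF8 from the base was -0.06 ± 0.23 (limma adjusted p = 0.929). Col10a1 (-7.00 ± 0.65, adjusted p = 0.00171), Ihh (-2.62 ± 0.36, adjusted p = 0.00662) and Mmp13 (-2.52 ± 0.50, adjusted p = 0.0215) were lower in MCAGF8 than in the base. The part of these markers in the result was not tested.

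Cnmd, the antiangiogenic glycoprotein, was the most abundant of the 10 genes in 7 of 9 libraries. It was at 416.8, 574.7 and 814.0 FPKM in the MCAGF8 vault, 364.8, 626.6 and 350.2 FPKM in the control vault, 287.3 and 231.1 FPKM in base replicates 1 and 3 and 1641 FPKM in base replicate 2. The vaults overlapped (0.43 ± 0.66, adjusted p = 0.976). Against the base the difference was 0.28 ± 0.66 (adjusted p = 0.870), and without base replicate 2 it was 1.17 ± 0.34 (adjusted p = 0.0458). Epyc was at 75.3, 53.8 and 91.2 FPKM in the MCAGF8 vault, 63.8, 132.2 and 62.1 FPKM in the control vault, 84.1 and 30.0 FPKM in base replicates 1 and 3 and 312.7 FPKM in base replicate 2. It passed no test, with a difference between the vaults of -0.17 ± 0.69 (adjusted p = 0.991).

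Counted over the 10 genes, the MCAGF8 vault and the control vault differed in none by the test (unadjusted p under 0.05 and adjusted p under 0.1), where 0.604% of all genes tested passed. One gene, Matn4, had an unadjusted limma p under 0.05, where 6.34% of all genes did. In FPKM the vaults did not overlap in 3 of 10, Acan, Hapln3 and Matn4, all higher in MCAGF8, where 19.2% of all genes did not overlap. The mean difference was above 0 in 8 genes and below 0 in 2, with a median of 0.35 against -0.01 over all genes tested. With base replicate 2 left out, Matn4 alone passed, where 1.47% of all genes did, and in the fit to the 6 vault libraries Matn4 again passed alone, where 1.45% did.

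Against the base, 3 of 10 genes passed, where 8.39% of all genes did: Hapln3 and Matn4 rose and Comp fell in the MCAGF8 vault. The same 3 had an unadjusted p under 0.05 (19.6% of all genes) and did not overlap (21.9%). The median difference was 0.37 against -0.07 over all genes. Without base replicate 2, 6 of 10 passed, with Acan, Matn1 and Cnmd added on the higher side, where 24.5% of all genes passed, and 8 of 10 did not overlap, all but Matn2 and Epyc, where 43.8% of all genes did not overlap with 3 libraries against 2. The base against the control vault gave no call among the 10, where 3.06% of all genes passed. Hapln3 and Comp had an unadjusted p under 0.05 (12.8% of all genes) and did not overlap (15.5%). Without base replicate 2, Matn4 passed, where 7.17% of all genes did, and 6 of 10 did not overlap, Comp higher in the base and Acan, Hapln3, Matn1, Matn4 and Cnmd lower, where 35.6% of all genes did not overlap. The comparisons share the MCAGF8 or control libraries and are not independent of each other.

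**Figure D2:**
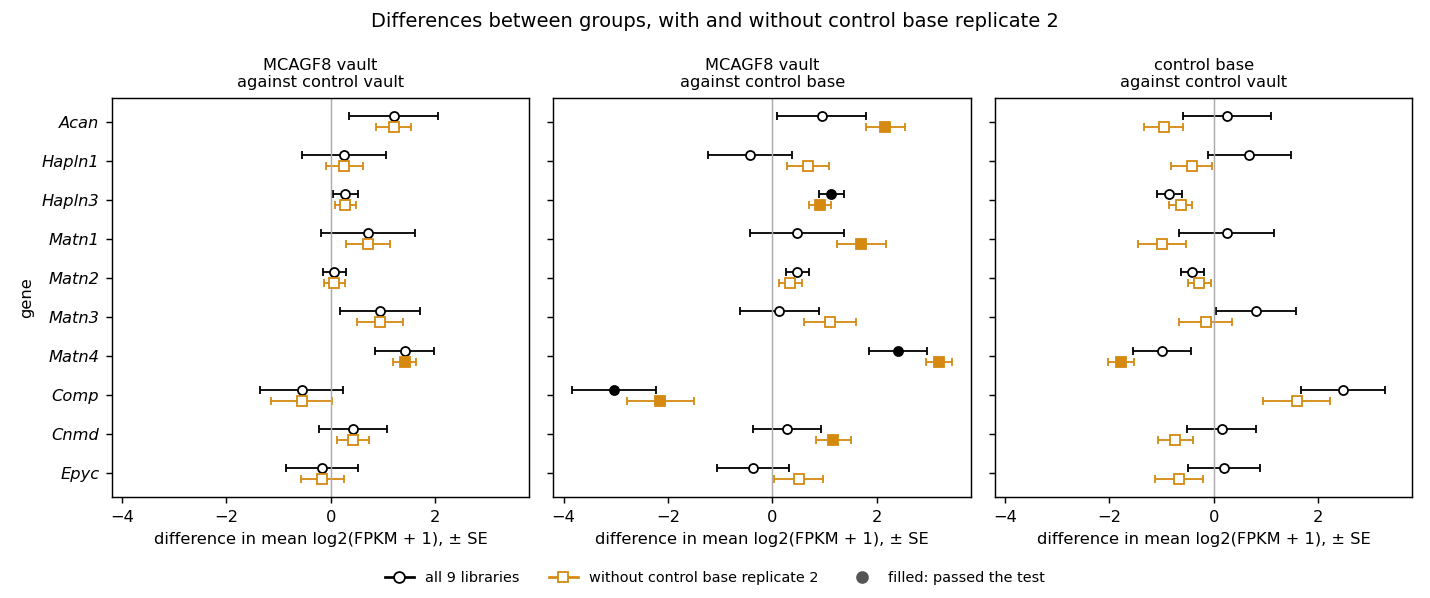
Difference in mean log2(FPKM + 1), ± SE, of each gene (rows) in the 3 comparisons, fitted to all 9 libraries (black circles) and without control base replicate 2 (orange squares), with filled marks where the test was passed. Estimates between the vaults keep their place and lose width, while 8 genes move to the right in the middle panel, among them Acan from 0.95 to 2.16, and Hapln3 and Matn2 move slightly to the left.

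Setting each gene against Col2a1, the type II collagen of the same matrix, in the same library showed how closely each gene followed this cartilage collagen. Col2a1 itself was at 583, 1146 and 1114 FPKM in the MCAGF8 vault and 373, 462 and 421 FPKM in the control vault, and it spanned 14.1-fold over the 9 libraries. Acan spanned 18.9-fold in level, but its FPKM was between 7.62% and 11.7% of that of Col2a1 in every library, base replicate 2 included at 10.5%. Matn1 spanned 21.6-fold in level and 1.91-fold as a share of Col2a1, from 23.3% to 44.5%. For the others the share ranged 3.32-fold (Matn3), 3.52-fold (Cnmd), 5.61-fold (Matn4), 6.50-fold (Hapln1), 10.995-fold (Epyc), 15.6-fold (Matn2), 25.0-fold (Hapln3) and 108-fold (Comp).

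Between the vaults 3 of 10 ratios did not overlap, all lower in MCAGF8, where 73.3% of all genes tested did not overlap because Col2a1 itself was higher in every MCAGF8 library. Cnmd was 64.9% ± 12.8 of Col2a1 in the MCAGF8 vault and 106% ± 27.1 in the control vault, Epyc 8.60% ± 4.13 and 20.2% ± 7.43, and Matn2 6.94% ± 3.63 and 13.2% ± 1.09 (SD, n = 3; exact two-sided permutation p = 0.10 for each, the smallest 3 against 3 allows). The ratio of Matn4 overlapped, at 71.9% ± 16.0 and 57.7% ± 7.12 (exact permutation p = 0.30). The count of 3 was 7 without MCAGF8 replicate 3 and 6 without control vault replicate 3. The share of all genes, 73.3% with all libraries, was not counted for these sets, so neither count marks the 10 genes.

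Against the base, the ratio of Matn4 was higher in MCAGF8 (71.9% ± 16.0 against 27.2% ± 10.05), and those of Hapln1 (15.2% ± 6.06 against 39.3% ± 15.1) and Comp (0.245% ± 0.277 against 4.87% ± 1.73) were lower, with no overlap, where 2.05% of all genes did not overlap (exact permutation p = 0.10 each). Between base and control vault, Comp was higher in the base and Matn4 lower (exact permutation p = 0.10 each), where 0.839% of all genes did not overlap. Col2a1 itself ran from 162.8 to 2292 FPKM within the base. The base ratios of a gene that did not follow it were therefore widely spread and prone to overlap. The shares over all genes are thus held low by the reference gene and do not mark the 10 genes as exceptional. For Comp and Matn4, base replicate 2 lay on the same side of the vaults as the other base libraries but was the lowest of them. Its Comp was 3.38% of Col2a1 beside 6.77% and 4.45%, and its Matn4 15.7% beside 34.1% and 31.9%. The base thus had the most Comp and the least Matn4 per Col2a1 in each of its libraries. For Hapln3 (0.0679% beside 1.70% and 1.25%) and Matn2 (1.48% beside 23.0% and 20.5%) the ratio set base replicate 2 far apart from the other base libraries. Without base replicate 2 the counts were 7 against the MCAGF8 vault and 4 against the control vault. Without base replicate 1 the latter was 5, and without MCAGF8 replicate 3 the former was 6. The share of all genes was not counted for these smaller sets of libraries, so these counts do not mark the 10 genes either.

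**Figure D3:**
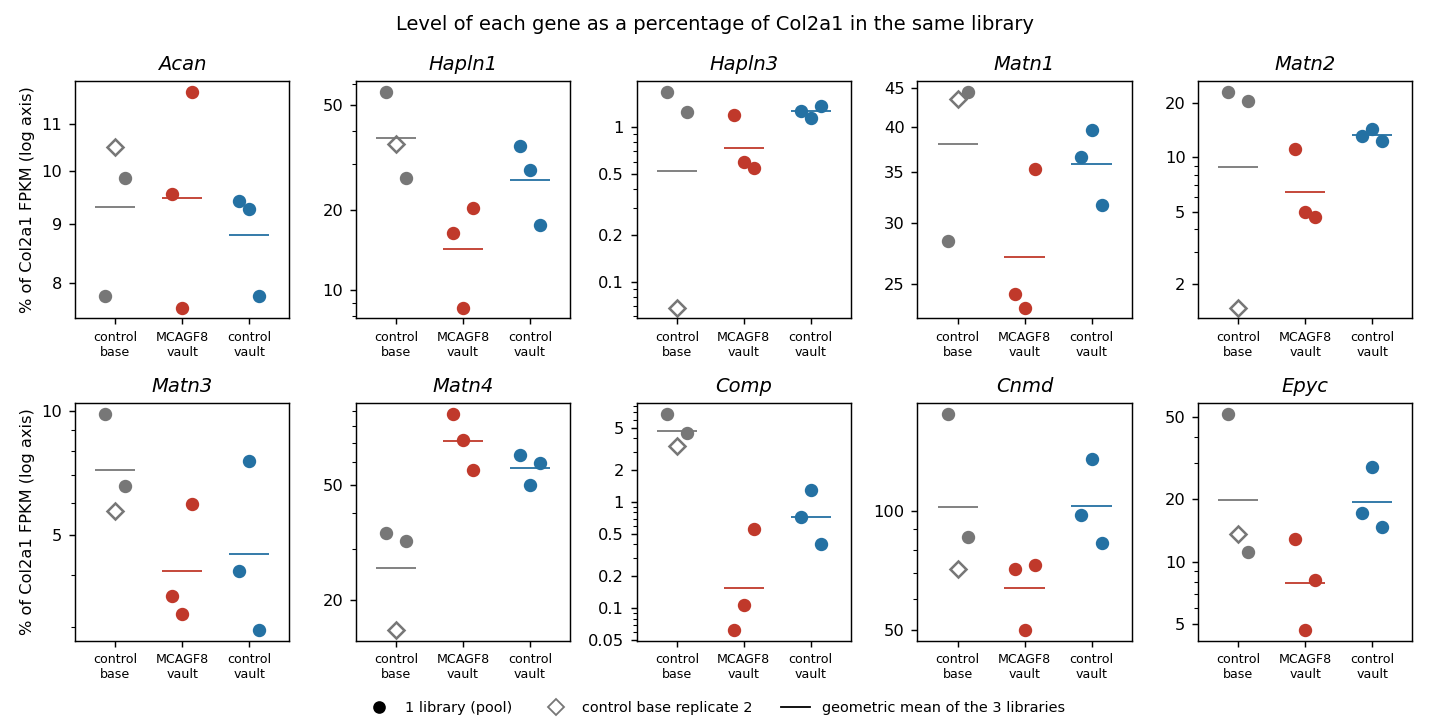
FPKM of each gene as a percentage of the FPKM of Col2a1 in the same library (log axis, range set per panel), with groups and marks as in the plot of levels. Acan stays within 7.62% to 11.7% in all libraries, Comp is 3.38% to 6.77% in the base and at most 1.31% in both vaults, and Matn4 is lowest in the base.

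Seen as shares of the 10 genes together, Matn4 and Comp again set the tissues apart. Their summed level was 1392 to 2415 FPKM in the MCAGF8 vault, 975 to 1458 FPKM in the control vault, 644 and 651 FPKM in base replicates 1 and 3 and 4613 FPKM in base replicate 2. Matn4 made up 36.9%, 40.9% and 25.9% of that sum in the MCAGF8 vault, 22.8%, 15.8% and 25.7% in the control vault and 8.62%, 7.80% and 13.1% in base replicates 1, 2 and 3. Comp made up 1.71%, 1.68% and 1.83% of the sum in base replicates 1, 2 and 3, at most 0.416% in the control vault and at most 0.260% in the MCAGF8 vault. Cnmd made up 28.7% to 33.7% in the MCAGF8 vault, 35.1% to 43.0% in the control vault and 35.5% to 44.6% in the base. Shares of 1 sum are tied to each other, so a higher share of Matn4 lowers the others.

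**Figure D4:**
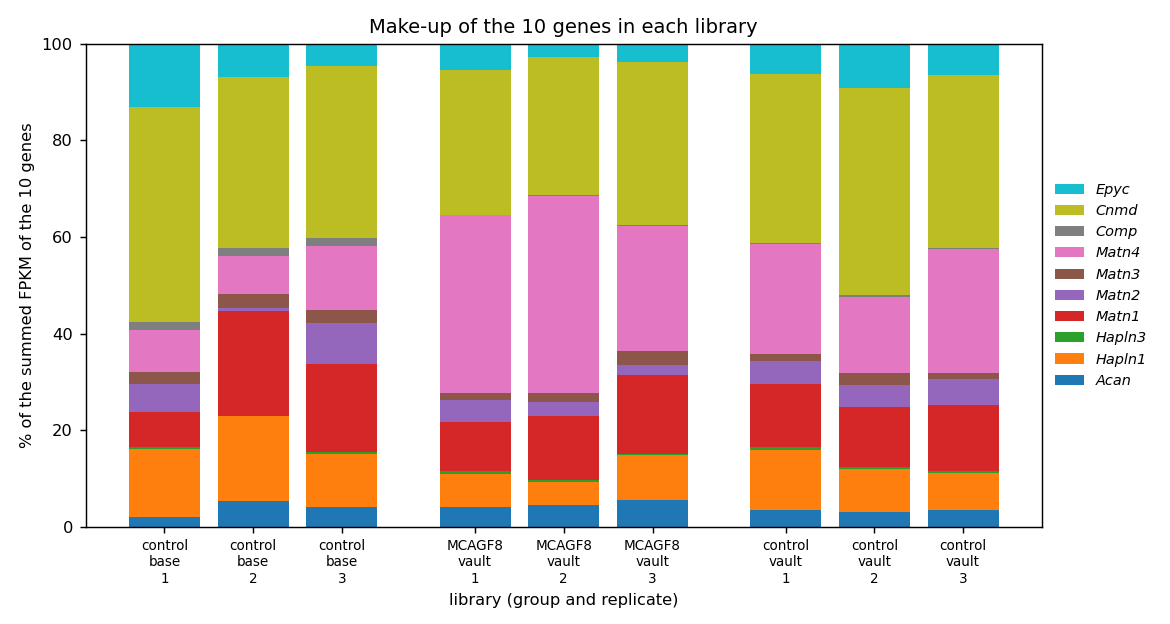
Share (%) of each gene in the summed FPKM of the 10 genes, as 1 stacked bar per library for control base, MCAGF8 vault and control vault replicates 1 to 3. The Matn4 segment is 25.9% to 40.9% in the MCAGF8 bars and 7.80% to 13.1% in the base bars, and Comp is visible as a thin segment in the base bars.

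Over the 9 libraries the genes were graded in how closely they followed Col2a1, without a clear split. This is a description of pools that share the outlying base library. Acan correlated with Col2a1 at r = 0.989 (Pearson, log2 scale) and with Matn1 at r = 0.976, and without base replicate 2 (8 libraries) the values were 0.980 and 0.964. Matn1 and Col2a1 gave 0.961 over 9 and 0.938 over 8 libraries. Hapln3 had r = -0.04 with Col2a1 over 9 libraries and 0.876 over the 8, a difference made by 1 library, and Matn4 had 0.812 and 0.964. Cnmd had 0.904 and 0.831, Matn3 0.867 and 0.757, Hapln1 0.765 and 0.541, and Matn2 -0.12 and 0.557. Comp had 0.248 and -0.53, and Epyc 0.580 and 0.154. Groups differ in these libraries, so the values reflect differences between tissues as well as between pools.

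The genes outside the 10 whose pattern was most alike were searched among 12934 genes averaging 5 FPKM or more. For Acan they were Col2a1 (r = 0.989), Wwp2 (0.987), a ubiquitin ligase whose gene hosts a microRNA, and Meltf (0.981), for Matn1 Meltf (0.991), Papss2 (0.984), which makes the sulfate donor for proteoglycans, and Xylt1 (0.983), which starts their sugar chains. For Hapln1 they were Gm14603 (0.980), Slc35d1 (0.964), a transporter of nucleotide sugars, and Csgalnact1 (0.961), a chondroitin sulfate synthase, and for Matn3 Susd5 (0.970), Csgalnact1 (0.965) and 4930523C07Rik (0.958). Comp was most like S100b (0.963), Clec3a (0.946) and Prkg2 (0.945), and Cnmd like Fbln7 (0.955), Sorbs2 (0.937) and Meltf (0.937). Matn4 was most like Zfpm2 (0.986), Slpi (0.986) and D630003M21Rik (0.975), Hapln3 like Nrros (0.985), Palld (0.980) and Zcchc24 (0.978), Matn2 like Adam19 (0.956), Adamts15 (0.934) and Tnn (0.934), and Epyc like Gm6501 (0.925), Rad17 (0.903) and Fbln7 (0.902). Over the 8 libraries without base replicate 2 these 30 values were between 0.728 and 0.990, and Spearman's rho over 9 libraries was between 0.70 and 1.00. Within the 6 vault libraries r ran from 0.651 (Epyc and Fbln7) to 0.993 (Matn4 and Slpi). The genes were picked by r over these same libraries, so high values are partly set by the choice and are no separate evidence.

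The wider matrix around the 10 genes was described by 4 lists. Of 26 other cartilage matrix genes and their modifying enzymes, none passed between the vaults, 20 had a difference above 0, and the median was 0.38. Col2a1 and Col9a3, the most abundant, had differences of 1.12 ± 0.81 and 0.96 ± 0.74 (adjusted p = 0.969 for both). Against the base, Fmod, which binds collagen fibrils, rose (2.05 ± 0.23, adjusted p = 0.00291), while Snorc (-3.85 ± 0.46, adjusted p = 0.00411), Scrg1 (-3.21 ± 0.50, adjusted p = 0.00999) and Cilp (-1.79 ± 0.38, adjusted p = 0.0280) fell with Comp. Snorc is a transmembrane proteoglycan of chondrocytes. When base replicate 2 was left out, 16 of 26 passed, 13 higher and 3 lower, beside 24.5% of all genes (6.33% higher and 18.2% lower). Snorc and Scrg1 were also higher in the base than in the control vault (2.84 ± 0.46 and 2.54 ± 0.50, adjusted p = 0.0214 and 0.0466), and Fmod was lower (-2.48 ± 0.23, adjusted p = 0.00184).

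Of 12 relatives of the 10 genes, 10 were tested, Hapln2 and Hapln4 being too low. Thbs4, a thrombospondin of the same pentameric subfamily as COMP and a tendon gene, fell in the MCAGF8 vault against the control vault (-2.05 ± 0.22, adjusted p = 0.0146) and against the base (-2.82 ± 0.22, adjusted p = 0.000558). It stood at 3.34, 4.58 and 2.87 FPKM in the MCAGF8 vault and 20.9, 18.8 and 14.2 FPKM in the control vault. The trimeric thrombospondins Thbs1 (1.82 ± 0.46, adjusted p = 0.0540) and Thbs2 (1.74 ± 0.24, adjusted p = 0.00658) rose against the base, and Thbs2 was lower in the base than in the control vault (-1.83 ± 0.24, adjusted p = 0.0105). Vcan, the aggrecan-like proteoglycan of mesenchyme, was 0.97 ± 0.33 higher than in the base (adjusted p = 0.138) and 0.52 ± 0.33 higher than in the control vault (adjusted p = 0.969). Tnmd, the tendon relative of chondromodulin, was lower in the base than in the control vault (-2.52 ± 0.39, adjusted p = 0.0164) and stood at -1.83 ± 0.39 between the vaults (adjusted p = 0.127), a call made without base replicate 2. Tendon markers, which include Thbs4 and Tnmd, summed to 198 to 207 FPKM in the MCAGF8 vault and 343 to 525 FPKM in the control vault.

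Of 8 chondrocyte regulators none passed between the vaults. Sox9, the master regulator of the lineage, was at 40.3, 63.1 and 58.9 FPKM in the MCAGF8 vault and 23.2, 24.6 and 21.3 FPKM in the control vault (1.17 ± 0.47, adjusted p = 0.684), and it passed without base replicate 2. The study picked Sox9, Col2a1 and Col9a3 from these libraries as well. Nkx3-2, a repressor that holds back chondrocyte maturation, fell against the base (-1.26 ± 0.31, adjusted p = 0.0524). It was higher in the base than in the control vault (1.72 ± 0.31, adjusted p = 0.0342), and Runx2, which drives bone and late cartilage, was lower in the base than in the control vault (-0.91 ± 0.22, adjusted p = 0.0898). Of 9 genes for proteases that can cut aggrecan and their inhibitor, none passed between the vaults, with Htra1 at 0.76 ± 0.23 (adjusted p = 0.357) and Timp3, the inhibitor, at -0.09 ± 0.22 (adjusted p = 0.985). Against the base the aggrecanases Adamts4 (1.01 ± 0.21, adjusted p = 0.0257) and Adamts5 (0.97 ± 0.28, adjusted p = 0.0855) and Htra1 (2.13 ± 0.23, adjusted p = 0.00251) rose. Adamts4 (-0.83 ± 0.21, adjusted p = 0.0996) and Htra1 (-1.36 ± 0.23, adjusted p = 0.0233) were lower in the base than in the control vault.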

How the data were processed

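Per the labels and methods, stranded mRNA libraries from pooled RNA were sequenced as single-end reads, mapped with gSNAP and summarised with Cufflinks (named in the submitters' processing notes). The deposited values are the authors' FPKM per Ensembl gene, with genome build, annotation and versions not given in the sources used here. Library depth is unknown, so no counting interval is given, and precision rests on the SD of 3 pools.

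The 63 rows repeating an identifier were summed, and 9 genes with the placeholder 999999999 (17 cells) were left out. All genes averaging 0.5 FPKM or more entered the fit of log2(FPKM + 1) by limma 3.58.1 in R 4.3.3 (eBayes with trend, 1 mean per group, all 9 libraries, two-sided), and a call needed p under 0.05 before and under 0.1 after Benjamini-Hochberg adjustment over the 18714 genes. Ratios to Col2a1 were tested by exact permutation. Python 3.11.15, pandas 2.3.3, numpy 2.4.6 and matplotlib 3.10.9 were used. The alternatives were other pseudocounts, filters, scalings, thresholds and references, a replicate block, and each library left out.

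Named genes were the 10 members, Col2a1, Sox9, in each context list the called genes and the 2 of highest mean, and the 3 most alike genes per member. Members and lists were chosen with earlier results of these data known. Members called without base replicate 2 are named because that library is shown apart.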

Additional observations from a re-analysis of the deposited data

How the results depend on the processing

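Of 587 alternative values of the log2 differences, 532 kept their direction and side of the threshold, 12 newly passed, 13 no longer passed and 30 changed sign. Leaving out base replicate 2 moved the genes called from 0 to 1 between the vaults, from 3 to 6 against the base and from 0 to 1 between base and control vault, and with 1 library left out at a time these counts ran from 0 to 1, 0 to 6 and 0 to 1. A fit to the 2 groups compared gave 1 call between the vaults and 1 against the base. Adding the removal of base replicate 2 to it, a choice made after seeing the data, gave 6 against the base and 1 between base and control vault. It does not apply to the fit between the vaults. The unmoderated model gave 1 call against the base, and quantile normalization and rescaling to a common median gave 1 (Hapln3) between base and control vault. An unadjusted p alone gave 1 between the vaults and 2 between base and control vault, where 6.34% and 12.8% of all genes passed. Apart from the fits whose shares are given above, the share of all genes is not given here, so these counts only show how the calls moved. In the fit to all groups, a difference between the vaults does not use the base values, but its SE does, because the groups share 1 estimate of the spread. Leaving out base replicate 2 therefore changed the SE there and not the estimate. The cause of the other moves was not tested.

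Without base replicate 2, in the fit to all groups and to 2 groups alike, the difference of MCAGF8 from the base turned to 0.68 (Hapln1) and 0.50 (Epyc), and that of base from control vault to -0.96 (Acan), -0.43 (Hapln1), -0.997 (Matn1), -0.16 (Matn3), -0.74 (Cnmd) and -0.67 (Epyc). With 1 library left out at a time, differences that changed sign ran between the vaults from -0.15 to 0.47 (Hapln1), -0.0155 to 0.20 (Matn2) and -0.35 to 0.19 (Epyc). Against the base they ran from -1.07 to 0.68 (Hapln1), -0.49 to 1.71 (Matn1), -0.38 to 1.10 (Matn3), -0.24 to 1.17 (Cnmd) and -1.17 to 0.50 (Epyc). Between base and control vault they ran from -0.96 to 1.11 (Acan), -0.43 to 1.33 (Hapln1), -0.997 to 1.20 (Matn1), -0.16 to 1.32 (Matn3), -0.74 to 0.67 (Cnmd) and -0.67 to 1.00 (Epyc). Rescaled to a common sum, Epyc was 0.0052 between the vaults. Ratios to Col2a1 that did not overlap numbered 3 to 7, 3 to 7 and 2 to 5 with 1 library left out, with no share of all genes counted for these sets. Of the base ranks, 7 of 10 held without replicate 2.

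The replicate block gave 0, 3 and 0 calls, as without it, while over all genes it gave 19, 918 and 234 calls against 113, 1571 and 573. Same-numbered libraries of different groups correlated in their deviations from the group means at -0.55 to 0.37. Libraries of different numbers correlated at -0.48 to 0.56, so the numbers gave no sign of pairing. With 3 pools per group these values cannot show whether base and control vault pools share embryos. Depth is unknown, and 3 pools per group limit what could be detected.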
